A study of Mus musculus with 40 samples.

Results

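HE2-only regions are stretches of the mouse genome whose fragments drove a fluorescent reporter in cells sorted as late hemogenic endothelium (HE2) and were recovered from no fluorescent cells of any other stage examined. The fragments of all 40 libraries were merged into 75060 regions wherever they overlapped by 1 bp or more. A region was chosen when 2 or more different fragments came from the Low, Medium or High reporter gates of HE2, with replicates pooled, and none came from those gates at ES, HB, HE1 or HP. Members were thus selected on the presence of fragments in the 30 positive libraries. The selection kept 520 regions, which are 0.693% of all regions and 4.04% of the 12861 regions with 2 or more positive HE2 fragments. The stage pattern was fixed by that choice and is described below without a test.

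The reporter cells were HM-1 mouse embryonic stem (ES) cells of strain 129/ola, in which a non-functional Hprt gene is repaired when the reporter integrates there. Tn5-cut open-chromatin fragments from 5 stages had been cloned upstream of an HSP68 minimal promoter and Venus-YFP, the plasmid libraries mixed, and a pool of transfected cells differentiated in serum culture. The groups were undifferentiated ES cells, FLK1+ hemangioblast cells (HB), early hemogenic endothelium (HE1, KIT+ TIE2+ CD41-), late hemogenic endothelium (HE2, KIT+ TIE2+ CD41+) and hematopoietic progenitors (HP, KIT+ TIE2- CD41+), and each was sorted into Negative, Low, Medium and High YFP gates in 2 replicates. All groups carried the same reporter design. Media differed with the stage: ES cells were kept with LIF, whereas HE1, HE2 and HP came from a blast culture with VEGF, IL-6 and D4T conditioned medium. A fragment was read at a single locus, with a minimal promoter and away from its own gene, and the upper bound of the Negative gate came from a line with the minimal promoter alone. Every cell was the progeny of a transfected clone, and clones that do not differentiate cannot be seen at HE2.

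Hemogenic endothelium is the endothelial cell state from which blood cells arise in the embryo through the endothelial-hematopoietic transition. During that transition RUNX1 and, later, PU.1 bind and activate blood genes, while the endothelial programme is shut down. CD41, a platelet integrin chain encoded by Itga2b, marks cells that have entered this transition. Enhancers are the distal elements at which such factors act, and a minimal-promoter reporter measures whether a piece of DNA can raise transcription in a given cell state.

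The sequences of 6 HE2-only regions are shown because they combine a gene of the blood or signalling programme with the DNA that was active. They are read 5′ to 3′ on the plus strand of GRCm38 (mm10), at most 300 bp around the base covered by most HE2 fragments. Capitals mark matches to the RUNX motif (TGTGGTT or TGTGGTC), the PU.1 motif (GAGGAAGT), the AP-1 motif (TGACTCA) or the GATA motif (AGATAAG), on either strand. GACCACA is therefore a RUNX match and TGAGTCA an AP-1 match on the minus strand.
Nfkb1 region, chr3:135641153-135641452: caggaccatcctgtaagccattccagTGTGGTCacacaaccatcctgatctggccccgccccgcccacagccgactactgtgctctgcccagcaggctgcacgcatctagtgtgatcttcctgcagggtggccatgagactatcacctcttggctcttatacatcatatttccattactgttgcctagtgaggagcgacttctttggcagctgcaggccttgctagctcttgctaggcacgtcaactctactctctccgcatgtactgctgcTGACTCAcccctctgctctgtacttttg
Epas1 region, chr17:86744905-86745204: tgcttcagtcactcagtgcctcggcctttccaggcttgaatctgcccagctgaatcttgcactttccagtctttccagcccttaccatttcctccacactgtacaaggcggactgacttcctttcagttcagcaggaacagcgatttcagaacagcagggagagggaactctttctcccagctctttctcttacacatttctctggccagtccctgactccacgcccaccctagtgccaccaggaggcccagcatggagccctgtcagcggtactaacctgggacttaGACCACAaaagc
Tgfbr1 region, chr4:47293797-47294096: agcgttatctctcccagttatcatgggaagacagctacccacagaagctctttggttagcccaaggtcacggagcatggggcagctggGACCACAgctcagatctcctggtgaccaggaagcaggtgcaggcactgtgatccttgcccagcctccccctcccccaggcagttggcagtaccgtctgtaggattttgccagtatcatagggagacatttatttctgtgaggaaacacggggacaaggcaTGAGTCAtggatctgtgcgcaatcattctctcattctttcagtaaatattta
Maf region, chr8:115626427-115626671: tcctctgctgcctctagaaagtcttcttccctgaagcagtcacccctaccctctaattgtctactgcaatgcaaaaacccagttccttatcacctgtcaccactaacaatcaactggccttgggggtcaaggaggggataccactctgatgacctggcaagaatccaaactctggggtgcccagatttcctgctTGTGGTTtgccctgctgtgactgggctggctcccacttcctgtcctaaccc
Runx1 region, chr16:92867315-92867529: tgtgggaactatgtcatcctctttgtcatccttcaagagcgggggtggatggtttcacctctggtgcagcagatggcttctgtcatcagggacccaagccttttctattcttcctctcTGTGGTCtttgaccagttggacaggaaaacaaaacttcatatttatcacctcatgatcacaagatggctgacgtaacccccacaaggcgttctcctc
Spi1 region, chr2:91086244-91086505: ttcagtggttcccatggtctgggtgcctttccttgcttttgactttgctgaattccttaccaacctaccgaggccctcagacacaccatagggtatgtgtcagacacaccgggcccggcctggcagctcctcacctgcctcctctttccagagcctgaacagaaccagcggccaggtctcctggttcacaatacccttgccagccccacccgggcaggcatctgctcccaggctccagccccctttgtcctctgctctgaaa
RUNX matches stood in 5 of these 6 sequences and AP-1 matches in those of Nfkb1 and Tgfbr1, while the Spi1 sequence held none of the 4 motifs. The choice of sequences leans to regions with a match, since 6 of all 21 named regions held a RUNX match and 0 a PU.1 match. The Etv6 and Bmp2 regions and the 3 Cbfa2t3 regions described below had no RUNX match.

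The data were lists of unique fragments without read counts, 458486 lines in all for 354627 different fragments, with 654 to 51146 fragments a library. The depth of HE2 was very uneven. Replicate 1 held 68427 different positive HE2 fragments and replicate 2 held 3471. Of those of replicate 2, 50.0% had the same ends as a positive HE1 fragment of that replicate, whereas 9.79% of those of replicate 1 were shared in this way with HE1 of replicate 1. Between the replicates only 61 positive HE2 fragments were identical. The 2 HE2 sorts thus stood apart, and results that rest on them are given by replicate. The files hold no expression, so the HE2 label could not be checked against markers. Within 25000 bp of the genes behind the sort, regions with a positive HE2 fragment numbered 2 at Kit, 4 at Tek and 4 at Itga2b. Those with 2 or more such fragments numbered 1 at Kit, 4 at Tek and 4 at Itga2b. Of these, 0 were HE2-only, beside 4.04% over all regions with 2 or more positive HE2 fragments. Over the 18 marker genes of the sort, blood, endothelium, ES cells and smooth muscle, 1 locus, that of Spi1, held an HE2-only region. It was 1 of 4 regions there with 2 or more positive HE2 fragments. With so few regions, the counts at these loci cannot be told from the share over all such regions.

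Most HE2-only regions rested on few fragments from replicate 1. There were 366 regions with the minimum of 2 different positive HE2 fragments, 89 with 3 and 65 with 4 or more, and the 5 highest had 7. Fragments came from replicate 1 alone in 467 regions, from replicate 2 alone in 50 and from both in 3. In 59 regions the HE2 fragments all lay within 5 bp of each other at both ends. Just outside the rule were 1940 regions with a single positive HE2 fragment and none elsewhere, and 631 regions with 2 or more HE2 fragments and exactly 1 positive fragment at another stage. That 1 fragment was at HE1 in 390 of the latter regions, at HP in 159, at HB in 49 and at ES in 33. The count became 154 with a minimum of 3 HE2 fragments and 56 without replicate 1. Of single libraries, it moved by over 1.5 times with 3. It was 889 without the HE1 Medium library of replicate 1, 296 without the HE2 Low library of replicate 1 and 293 without its HE2 Medium library.

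**Figure D1:**
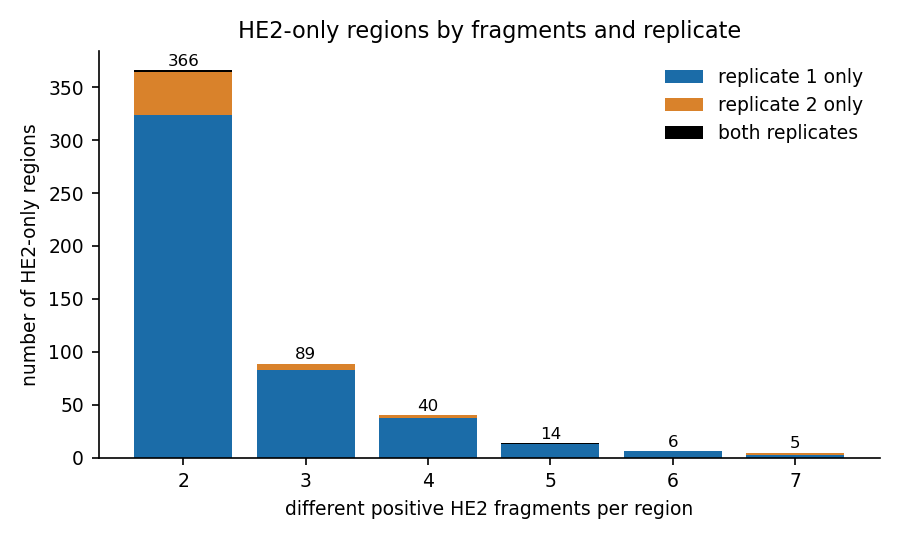
Number of HE2-only regions (y axis) by how many different positive HE2 fragments they held (x axis), coloured by the replicate that gave the fragments. The bars fall from 366 regions with 2 fragments to 5 regions with 7, and replicate 1 alone gave 467 of the 520 regions.

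The same rule gave 517 ES-only, 717 HB-only, 3118 HE1-only and 535 HP-only regions. Set against the regions with 2 or more positive fragments at the stage, these were 8.27% at ES, 8.36% at HB, 16.1% at HE1 and 5.97% at HP, beside 4.04% at HE2. HE2 had the lowest share with replicates pooled. Within replicate 1 the share was 4.04% at HE2 and 3.53% at HP, with 6.92% to 8.58% at the other stages, and within replicate 2 it was 20.3% at HE2 and 25.1% to 56.4% at the others. When every stage was thinned to the 36551 fragments of ES, HE2-only regions numbered 623 on average over 20 draws (SD 15.5), ES-only regions 706, HB-only 550, HE1-only 688 and HP-only 603. Of the 12341 regions with 2 or more positive HE2 fragments that were also positive elsewhere, called shared below, 94.0% were positive at HE1, 70.0% at HP, 57.0% at HB and 45.2% at ES.

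The HE2 fragments of HE2-only regions came from all 3 fluorescence gates. Fragments were found in 1 gate in 170 regions, in 2 gates in 302 and in all 3 gates in 48. As 366 regions held just 2 different fragments, the number of gates per region was largely limited by the number of fragments. It was not compared with that of other regions. In replicate 1, 1.67% of the fragments of the Low library lay in HE2-only regions (95% Wilson interval 1.52 to 1.83), 1.75% of the Medium library (1.59 to 1.92) and 1.67% of the High library (1.49 to 1.87). These 3 intervals overlapped. In replicate 2 the shares were 1.92% of the Low library (1.45 to 2.53), 2.34% of the Medium library (1.55 to 3.51) and 8.10% of the High library (6.25 to 10.4). The High library of replicate 2 was the smallest of the series, with 53 of its 654 fragments in the regions. These shares are descriptions, since the same libraries chose the regions.

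Of 11 regions with 6 or 7 fragments, 10 were named, with ties broken by the number of libraries. The region left out lay 2160 bp upstream of Hes7, a segmentation clock gene, with 3 Medium and 3 High fragments of replicate 1. Of the 10, 8 came from replicate 1. A region in an intron of Nfkb1, which encodes an NF-kappaB subunit, held 7 fragments, with 2 in the Low, 2 in the Medium and 3 in the High library of replicate 1. It lay 50275 bp into the gene, contained a RUNX and an AP-1 match and had no Negative fragment at any stage. A region 8843 bp upstream of Epas1, which encodes a hypoxia-inducible factor of endothelium, held 6 fragments, with 2 Low, 1 Medium and 3 High, and again no Negative fragment. Both regions were therefore seen in all 3 positive HE2 gates of replicate 1 and in no other library.

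At chr6:134041806-134042270, in an intron of Etv6, which encodes an ETS-family repressor needed for blood stem cells, there were 6 fragments (2 Low, 3 Medium and 1 High), 6338 bp into the gene. The Mafg intron, in the gene of a small MAF factor that pairs with NF-E2 in megakaryocytes, held at chr11:120630178-120630676 2 fragments in each of the 3 gates and 1 in a Negative library of HE2. In an intron of Iqgap2, a scaffold protein gene, a region at chr13:95638839-95639308 had 7 fragments, 4 Low and 3 Medium, and its nearest start site was that of F2r, the thrombin receptor. Over all 3 gates, 6 fragments each lay at chr1:172306313-172306525, 5948 bp upstream of the immunoglobulin superfamily gene Igsf8, and at chr11:46110143-46110539, in an intron of the membrane metalloprotease gene Adam19. The Adam19 region had Mir8100 as its nearest start site. The last of these 8 regions lay at chr11:102568800-102569268, 10085 bp from Gm11627, and held 5 Low and 2 High fragments, beside 2 Negative fragments of HE1.

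The other 2 of the 10 each rested on a single library of replicate 2. One in an exon of Gusb, the lysosomal beta-glucuronidase gene (chr5:129999807-130000169), had 7 fragments, all in the Low library, and a region near 4930546C10Rik had 7, all in the High library. In both, all fragments shared 1 of their ends. With fragments within 5 bp at both ends counted once in a library, 465 of the regions met the rule.

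Support from both replicates was rare. Only 3 regions had a positive HE2 fragment in both replicates. The best supported lay 128045 bp from Efnb2, the arterial ephrin ligand gene, at chr8:8532976-8533418, with 3 Low and 1 High fragments in replicate 1, 1 Low fragment in replicate 2 and 1 Negative fragment at HE1. An intronic region of Prkcd (chr14:30619909-30620185), which encodes protein kinase C delta, had 1 Low fragment in each replicate. The last, at chr9:9949295-9949531 in an intron of Cntn5, a neuronal contactin gene with Mir6237 as the nearest start site, had 1 High fragment in replicate 1 and 1 Medium fragment in replicate 2.

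**Figure D2:**
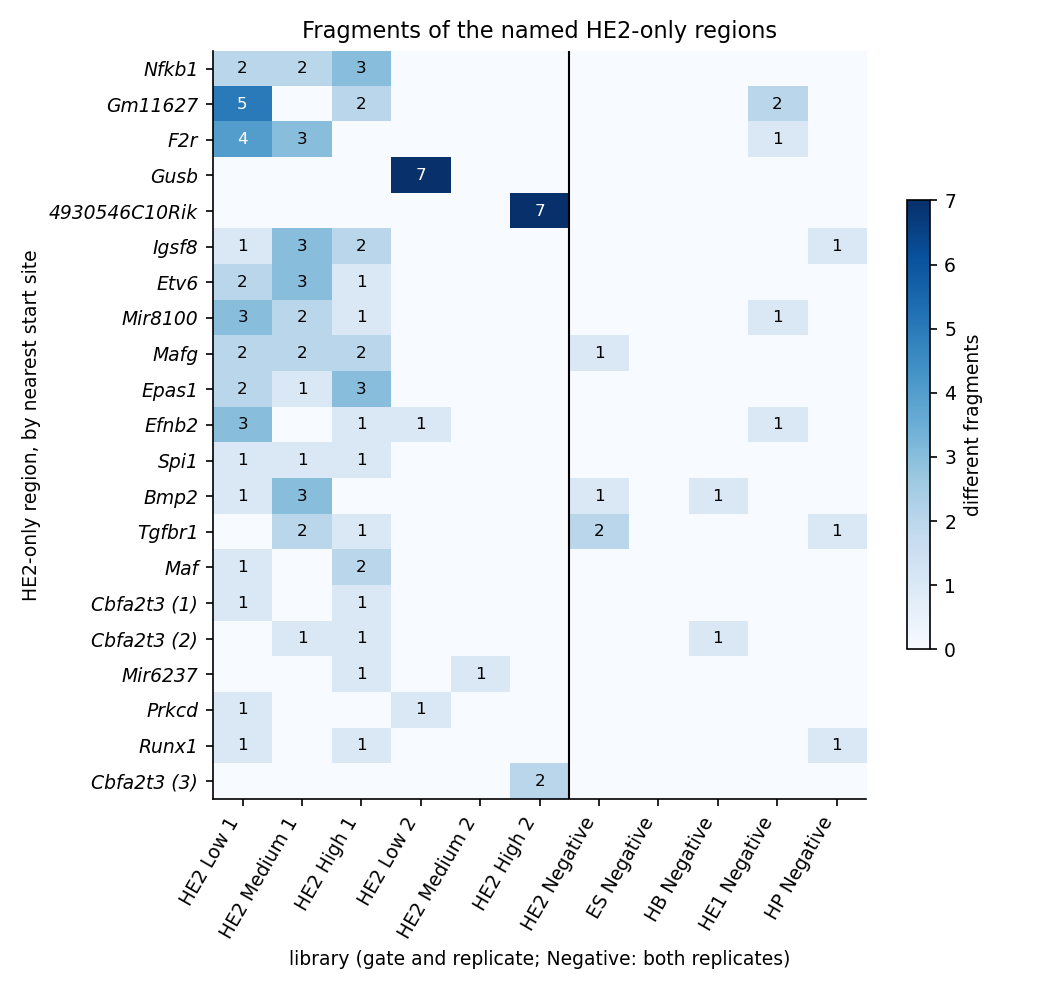
Different fragments (number and colour) of the named HE2-only regions (rows, by nearest start site) in the 6 positive HE2 libraries and in the Negative libraries of the 5 stages (columns). A fragment present in 2 libraries is counted in each. Counts sit in the replicate 1 columns except for the Gusb and 4930546C10Rik regions, the third Cbfa2t3 region and the single fragments at Efnb2, Mir6237 and Prkcd.

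Gene lists of the blood, endothelial and signalling programmes held 0 to 6 HE2-only regions each, and these counts are a description with no test. Regions were put to the gene with the nearest start site, and for each list the HE2-only regions were counted among those with 2 or more positive HE2 fragments, beside 4.04% over all such regions. Of 66 such regions at the 25 blood transcription factor genes 6 were HE2-only, or 9.09% (95% Wilson interval 4.23 to 18.4). Of 61 at the 24 endothelial genes of the list, which does not include Epas1 or Efnb2, 0 were, which allows a share of up to 4.92%.

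Of the 6 blood factor regions, 3 belonged to Cbfa2t3, a corepressor of the TAL1 and GATA complexes. They lay 7470 and 20530 bp upstream and 3179 bp downstream of its nearest start site. The first held 1 Low and 1 High fragment and the second 1 Medium and 1 High fragment of replicate 1, while the third held 2 near-identical High fragments of replicate 2. The Runx1 region shown above lay 41348 bp upstream of the nearest Runx1 start site and contained a RUNX match. It held 1 Low and 1 High fragment of replicate 1, beside 1 Negative fragment at HP. The Spi1 region lay in an intron 3970 bp into the gene that encodes PU.1, with 1 fragment in each gate of replicate 1 and no Negative fragment. The Etv6 region completed the 6. Cbfa2t3 was with Disc1, a scaffold protein gene, and Gas7, a cytoskeletal gene, among the 3 genes nearest to 3 HE2-only regions, out of 489 genes in all.

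Counts at genes of signalling pathways were small, and their wide intervals included the overall share of 4.04%. Of 39 eligible regions at genes of the TGF-beta, BMP and SMAD pathway 2 were HE2-only (5.13%). One lay 170824 bp upstream of Bmp2, a BMP ligand gene, with 3 different fragments, of which 1 was in the Low and 3 in the Medium library. The other lay 59276 bp upstream of Tgfbr1, a TGF-beta receptor gene, in an intron of the basement membrane collagen gene Col15a1, with 2 Medium and 1 High fragments. It also had 2 Negative fragments at HE2 and 1 at HP. Of 36 regions at AP-1, TEAD and Hippo genes 1 was HE2-only (2.78%, 0.492 to 14.2). It lay 80345 bp from Maf, with 1 Low and 2 High fragments and a RUNX match. Of 19 at mesoderm, cardiac and smooth muscle genes 2 were (10.5%, 2.94 to 31.4), near Hand1 and Pdgfra. This was the highest share of the lists, above the 9.09% at blood transcription factor genes. Its wide interval included both that share and the overall share. No HE2-only region was found among 15 at blood cell surface genes, 19 at pluripotency genes and 12 at neuronal genes, numbers at which a count of 0 allows shares of up to 20.0%, 15.8% and 25.0%.

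The positions of the HE2-only regions differed little from those of other regions. By the region centre, 52.1% lay in introns, 42.7% between genes and 5.19% in exons, against 46.3%, 48.3% and 5.35% of the shared HE2 regions. The median distance to a start site of a curated transcript was 22.4 kb, and that of the shared regions 19.9 kb. With all annotated transcripts the distance of HE2-only regions was 12.7 kb. HE2-only regions were shorter, with a median width of 276 bp against 587 bp, and merged fewer fragments (median 2 against 13 different fragments over all libraries). Their median GC content was 49.7%, as in all regions (49.7%) and below that of shared regions (51.7%). Repeat-masked bases made up 11.3% on average, beside 10.9% in the shared regions and 16.4% to 22.1% in the regions active only at ES, HB, HE1 or HP. This mean was 10.1% in the members with replicate 1 fragments and 21.6% in those with replicate 2 fragments, so the low value held in replicate 1. The other stage-only sets drew more on replicate 2. The rule in replicates 1 and 2 alone gave 509 and 56 regions at HE2, 400 and 185 at ES and 532 and 302 at HB. It gave 1304 and 2154 at HE1 and 297 and 302 at HP. Their masked bases were not split by replicate, so stage and replicate cannot be told apart in this contrast.

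In replicate 1 HE2-only regions carried the motifs of the blood factors RUNX1 and PU.1 more densely than shared HE2 regions or all regions did. In replicate 2 the matches of both motifs were too few to tell. With the rule in replicate 2 alone, RUNX matches stood in 3 of 56 central windows. This is 5.36%, with an interval (1.84 to 14.6) that spans the share of all regions. PU.1 matches stood in 2 of these 56 windows. In members of the pooled rule with replicate 2 fragments they stood in 0 of 53. Motif content was not used by the rule and is a description with no test. Over whole regions, a RUNX match stood in 20.6% of HE2-only, 24.5% of the wider shared and 13.0% of all regions, and a PU.1 match in 7.88%, 8.90% and 3.69%. Shared regions were thus higher by this measure, which grows with region width. Motifs were therefore also compared in the central 200 bp of each region. A RUNX match was found in 88 of 520 windows, or 16.9% (95% Wilson interval 13.9 to 20.4), against 10.2% of shared and 9.06% of all windows. A PU.1 match was found in 32, or 6.15% (4.39 to 8.56), against 4.05% and 2.50%. Per 1000 bp of the whole regions there were 0.798 RUNX matches against 0.477 in shared and 0.462 in all regions, and 0.281 PU.1 matches against 0.156 and 0.122. Both motifs occurred together in 7 HE2-only windows (1.35%), against 0.519% of shared and 0.284% of all windows. The 7 windows lay nearest to Ralgps1, Fmnl3, Mir28b, Fech, Hpse2, Rfx8 and 1810013L24Rik, which were listed after their values were seen.

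For the other motifs the HE2-only regions were close to the shared HE2 regions by the share of windows. Per 1000 bp of whole regions the ratio of HE2-only to shared regions was 1.29 for SOX, 1.25 for GATA and 1.18 for AP-1. It was 0.973 for E-boxes, 0.998 for TEAD, 1.03 for RBPJ and 1.04 for SMAD. An AP-1 match was found in 11.5% of HE2-only windows, in 12.5% of shared and in 7.02% of all windows. A GATA match was found in 5.58%, 6.34% and 4.11%. SOX matches (ACAAAGG or ACAATGG) were at 10.0%, 9.63% and 8.51%, TEAD matches (GGAATGT or GGAATGC) at 8.65%, 8.01% and 6.65%, and E-boxes (CAGCTG) at 17.3%, 18.3% and 13.9%. The short RBPJ (TGGGAA) and SMAD (CAGAC) words were at 20.8% and 47.7% of HE2-only windows, against 19.9% and 43.2% of all windows. Matches to the ETS (CCGGAAGT) and OCT (ATGCAAAT) words were in under 1% of HE2-only windows, and CEBP (TTGCGCAA) was in 0 of 520. Each word was searched on its own, so matches of different words can overlap, such as TEAD with RBPJ or PU.1 with SMAD. The pairs that follow were counted by the distance between match starts, and overlapping words were kept. A PU.1 match with a SMAD word within 50 bp stood in 14 HE2-only regions, which are 34.1% of the 41 regions with a PU.1 match. This share was 29.8% in such shared regions and 25.0% in all such regions. In the other stage-only sets it was 38.9% at ES (7 of 18), 13.3% at HB, 21.6% at HE1 and 12.9% at HP. All 14 HE2-only regions held replicate 1 fragments. A PU.1 match with an OCT word within 50 bp stood in 0 HE2-only regions and in 9 of all regions.

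The replicates differed in these shares. With the rule applied to each replicate alone, 18.1% of the 509 HE2-only windows of replicate 1 held a RUNX match (15.0 to 21.7). The HP-only windows of that replicate followed with 14.5% (10.9 to 18.9), with an overlapping interval, and those of ES, HB and HE1 were at 6.50%, 7.71% and 7.59%. The shared HE2 windows of replicate 1 were at 10.2%. PU.1 matches stood in 6.29% of the HE2-only and 7.07% of the HP-only windows of replicate 1, and in 1.88% to 2.99% of those of ES, HB and HE1. AP-1 had another order, with 17.6% at HE1, 12.2% at HE2 and 11.4% at HP. In replicate 2, 3 of 56 HE2-only windows held a RUNX match (5.36%, 1.84 to 14.6) and 2 a PU.1 match (3.57%, 0.985 to 12.1). The 302 HP-only windows of replicate 2 were at 7.62% and 1.32%. The RUNX interval of HE2 in replicate 2 lay wholly below that of replicate 1, and the PU.1 intervals overlapped. The 3471 positive HE2 fragments of replicate 2 against 68427 in replicate 1 moved with this difference, and their part in it was not tested.

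**Figure D3:**
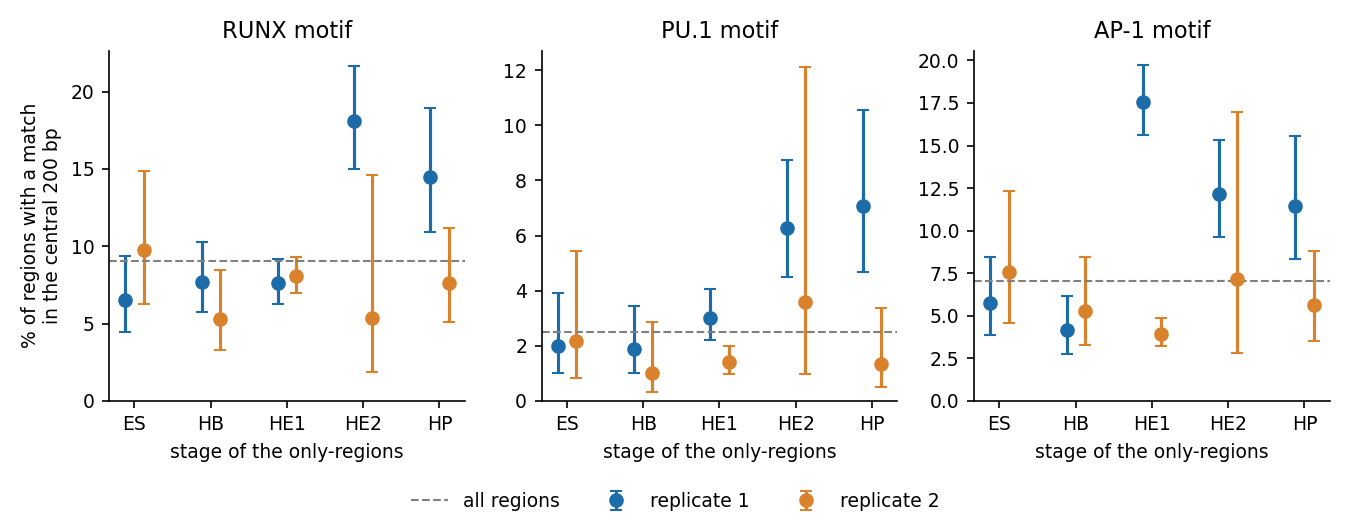
Share of stage-only regions with a RUNX, PU.1 or AP-1 match in the central 200 bp (y axes, %), by stage (x axis), with the rule applied to each replicate alone. Points are single sets with 95% Wilson intervals, and the dashed line is the share in all regions (9.06%, 2.50% and 7.02%). RUNX and PU.1 lie above the line at HE2 and HP of replicate 1. In replicate 2 the RUNX points lie below it at both stages, but their intervals (1.84 to 14.6 at HE2, 5.13 to 11.2 at HP) span it. The PU.1 interval at HE2 of replicate 2 (0.985 to 12.1) spans it too.

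The Negative gate, whose fragments helped to draw region borders but did not decide the stage pattern, showed whether fragments of the HE2-only regions were also carried by non-fluorescent cells. There was a Negative fragment of some stage in 153 of the 520 regions (29.4%), against 91.0% of the wider shared regions. Regions with a Negative fragment numbered 66 at HE2, 44 at HP, 42 at HE1, 13 at HB and 10 at ES. Where a region had no Negative fragment at another stage, inactivity there cannot be told from DNA that was not sampled. In 367 regions no Negative fragment was seen at any stage. For the comparison between stages, Negative fragments with the same ends as any positive fragment were left out. In replicate 1, 0.955% of the Negative HE2 fragments lay in HE2-only regions (63 of 6597). This share was 0.530% at HP, 0.478% at HE1, 0.0913% at HB and 0.0740% at ES. In replicate 2 the HE2 share was 0.146% (1 of 685), with 0.228% at ES, 0.223% at HB, 0.121% at HP and 0 of 627 fragments at HE1, which allows a share of up to 0.478%.

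The HE2 mean was 0.550% ± 0.572 (SD, n = 2) and that of the other stages 0.218% ± 0.192 (SD, n = 8), a difference of 0.332 percentage points that did not pass a two-sided exact permutation test over the 10 libraries (p = 0.111, smallest possible p 0.0222). Without the HE2 Negative library of replicate 1 the difference was -0.0721 percentage points. The HE2, HP and HE1 libraries of replicate 1 thus held the highest shares, and replicate 2 showed no such order.

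**Figure D4:**
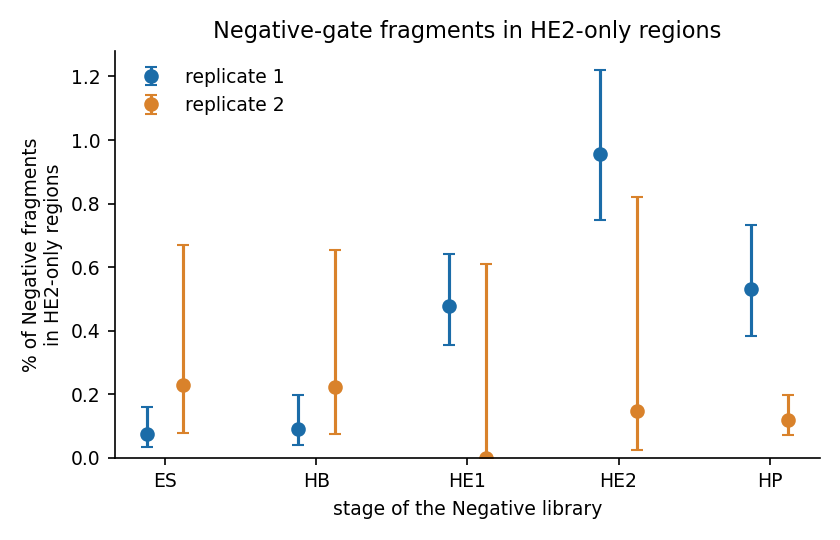
Share of the fragments of each Negative library that lay in HE2-only regions (y axis, %), by stage (x axis) and replicate (colour), with 95% Wilson intervals. In replicate 1 the share was 0.955% at HE2, 0.530% at HP and 0.478% at HE1, and in replicate 2 the intervals of all stages overlapped.

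Regions that were HE2-only in a single replicate did not recur preferentially at HE2 in the other. The rule in replicate 1 alone gave 509 regions, and 3 of the 3471 positive HE2 fragments of replicate 2 lay in them, or 0.0864% (0.0294 to 0.254). The share was 0.0998% at ES, 0.0901% at HB, 0.101% at HE1 and 0.0576% at HP of replicate 2. The rule in replicate 2 alone gave 56 regions, which held 0.0161% of the positive HE2 fragments of replicate 1 (11 of 68427), and 0.0180% at ES, 0.0565% at HB, 0.0304% at HE1 and 0.0479% at HP. No region was chosen in both replicates. Averaged over both directions the difference between HE2 and the other stages was -0.0114 percentage points (p = 0.88 in an exact permutation test, one-sided, with 25 arrangements and a smallest possible p of 0.04). With 3471 fragments in the HE2 sort of replicate 2, a recurrence of single regions was hardly detectable at this depth, but the regions of replicate 2 could be looked for among 68427 fragments. Of these 56 regions, 4 had a positive HE2 fragment in replicate 1, and 5 had a positive HB fragment and 5 a positive HP fragment there.

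**Figure D5:**
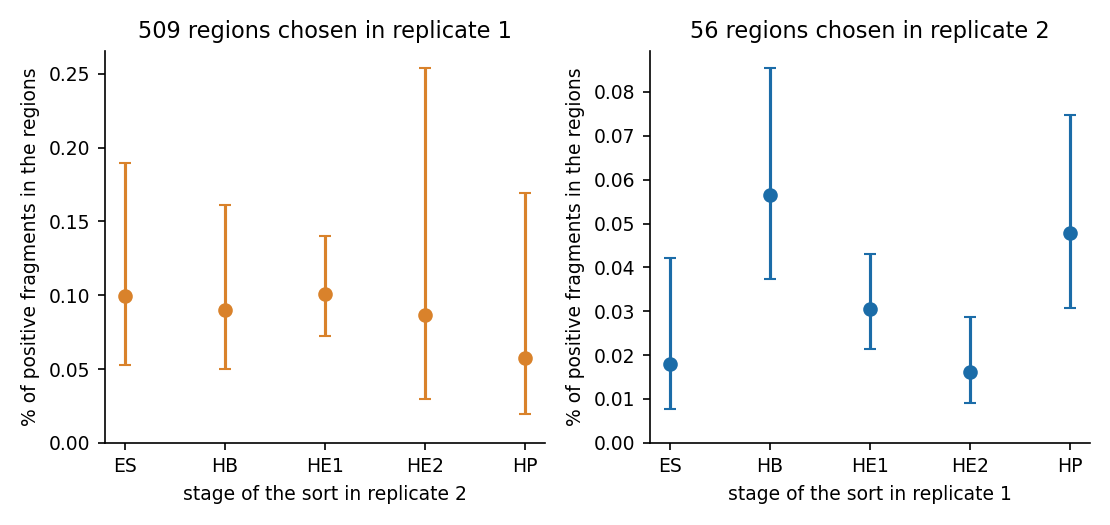
Share of the positive fragments of each stage (y axes, %) that lay in regions HE2-only in the other replicate, with 95% Wilson intervals. Left, 509 regions chosen in replicate 1 and looked for in replicate 2; right, 56 regions chosen in replicate 2 and looked for in replicate 1. HE2 does not stand above the other stages in either direction.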

How the data were processed

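The authors deposited 1 list of fragment coordinates (mm10) for each library, with no read count or score, so the values used here are positions of unique fragments. According to the study's methods and labels, reads were trimmed with Trim Galore and aligned with Bowtie2, and properly paired, well-mapped reads were kept with SAMtools. The sources used here give no versions of these tools. It is unclear whether the background-library and open-chromatin filters that the study describes were run on these lists. Only 0.553% of regions had their centre within 1500 bp of a start site, so the lists held distal fragments.

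Fragments overlapping by 1 bp or more were merged. Start sites and places came from curated RefSeq transcripts and sequences from GRCm38, and 17 scaffold regions were left out of both. The 12 motifs were exact words searched on both strands. Wilson 95% intervals, and the limits of 3 counts used where none was seen, reflect counting alone, since PCR without molecular identifiers can turn 1 molecule into several fragments. The p-values give the share of relabellings of these libraries with a difference at least as large as that seen. They treat libraries as exchangeable, over all or within a replicate, although those of a replicate are not independent. The stages of a replicate came from the same transfected pool, and Negative libraries with the same replicate number shared more identical fragments (mean 2.82% in replicate 1 and 32.3% in replicate 2) than those with different numbers (0.442%). Named regions were the 10 with most fragments, those in both replicates, and those at the blood, endothelial, TGF-beta and AP-1 gene lists. The members, lists and motifs were chosen with earlier results of these data known. The rule was checked on simulated data. Python with pandas, numpy and SciPy was used.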

Additional observations from a re-analysis of the deposited data

How the results depend on the processing

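The number of HE2-only regions (520) became 154 with a minimum of 3 HE2 fragments, and 465 with fragments of a library within 5 bp counted once. It was 461 with HE2 fragments within 5 bp counted once over all gates and replicates, an alternative chosen after seeing the data like the 200 bp motif windows. It ranged from 56 to 889 when replicates or libraries were left out, and was 56 without replicate 1 and 509 without replicate 2. The difference in the Negative gate passed the permutation test with all Negative fragments (0.390 percentage points, exact p = 0.0444). That setting counts fragments also found in the positive gates, which chose the regions, so no conclusion is drawn from it. Without Negative fragments within 5 bp of a positive one the difference was 0.276 (exact p = 0.333). The difference ranged from -0.0721 to 0.737 when libraries or replicates were left out. With a minimum of 3 HE2 fragments it was 0.0470 (exact p = 0.667). With stage labels exchanged within replicates (replicate block), it was 0.332 with an exact p of 0.12, so the paired permutation test changed no call. The difference between replicates was above 0 with a minimum of 1 fragment (0.0449, exact p = 0.2) and of 3 fragments (0.00432, exact p = 0.4). It ranged from -0.0227 to 0.00301 over the settings that left out a library or a direction, and no setting passed the test. In the 53 members with replicate 2 fragments, the share with a match was divided by that of all regions. This ratio was 0.723 for RUNX, 0.512 for PU.1, 0.578 for AP-1 and 0.957 for GATA. It was 0.955 for TEAD, 0.887 for SMAD and 0.752 for E-boxes, but above 1 for SOX (1.06) and RBPJ (1.21). Only 5 of these members held a RUNX, 1 a PU.1 and 3 an AP-1 match. Wilson intervals of these shares (4.10 to 20.3, 0.334 to 9.94 and 1.94 to 15.4) included those of all regions (13.0%, 3.69% and 9.80%). The same held for the other listed motifs, so ratios below 1 cannot be told from counting spread. The causes were not tested. The 3471 positive HE2 fragments of replicate 2 limit each comparison between replicates.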
